A study of Homo sapiens with 6 samples.

Results

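The genes described here were 9 known target genes of the transcription factor p53: MDM2, CDKN1A, GADD45A, BTG2, RRM2B, SESN1, FDXR, TP53INP1 and ZMAT3. They were taken from the 63677 genes of the deposited count table as the Ensembl identifiers that carry these symbols on primary chromosomes. Each symbol matched 1 row, and all 9 genes passed the filter on low counts that left 16926 genes for testing. The RNA came from RPMI8226, an established human multiple myeloma cell line, cultured for 6 hr with 100 nM of GST-PTR1 or with 100 nM of GST. GST-PTR1 is a recombinant protein in which the PTR1 domain of HAPLN1, a link protein of the extracellular matrix, is joined to glutathione-S-transferase, and the GST control lacks that domain. Each treatment had 3 libraries from biological replicates. The comparison therefore covers 1 cell line, 1 dose and 1 time, and the controls were exposed to GST rather than left untreated.

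In unstressed cells p53 is kept scarce by MDM2, an E3 ubiquitin ligase that marks it for degradation. DNA damage and other stresses release it, and it then binds paired copies of a short DNA motif near genes of cell cycle arrest, DNA repair, antioxidant defence, metabolism and apoptosis, and near the MDM2 gene itself, which closes a feedback loop. Several of these target genes are also known to answer to other transcription factors.

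Levels are given as CPM (counts per 1000000 counts) on totals scaled by the trimmed mean of M-values (TMM), with the 3 libraries of a treatment in order of rising total count. These totals were 15202503, 20077280 and 23453473 for GST and 22874133, 28837431 and 44688737 for GST-PTR1. A gene was called higher or lower when edgeR's quasi-likelihood test gave an adjusted p under 0.05, with p-values adjusted after Benjamini and Hochberg across all genes tested. The TMM factors ran from 1.05 to 1.10 in the GST libraries and from 0.883 to 0.975 in the GST-PTR1 libraries, so that scaling by plain totals moved the log2 fold change of the median gene by -0.20. Over all genes tested, 1549 were called higher and 1937 lower with TMM, and 927 higher and 3788 lower on plain totals. All 10 plasma cell markers examined were detected, and 6 of them were called (60%, beside 20.6% of all genes tested). By direction this was 30% higher and 30% lower, beside 9.15% and 11.4% of all genes. PRDM1, SLAMF7 and IRF4 were higher with GST-PTR1 (log2 fold changes 1.35, 1.52 and 0.65), and TNFRSF17, SDC1 and XBP1 were lower (-1.41, -1.03 and -0.47). The summed level of the 10 markers, most of it from JCHAIN and MZB1, was 4164 to 4899 CPM with GST and 4041 to 4973 CPM with GST-PTR1. Of 9 markers of T cells, monocytes, stroma and epithelium, the epithelial gene EPCAM stood at 71.1 CPM with GST and 65.1 CPM with GST-PTR1, and the other genes had means of 0.427 CPM or less. The part of these markers in the results was not tested.

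The 9 target genes did not move together. With GST-PTR1, TP53INP1, CDKN1A and FDXR were higher, SESN1, ZMAT3 and RRM2B were lower, and MDM2, BTG2 and GADD45A did not pass the test. The share called, 6 of 9, stands beside 20.6% of all genes tested, and by direction 3 of 9 stand beside 9.15% called higher and 3 of 9 beside 11.4% called lower. In this fit only TP53INP1 also passed the 2-fold threshold, which 3.68% of all genes did upward and 3.85% downward. The log2 fold changes ran from -0.77 for SESN1 to 1.84 for TP53INP1, with a median of 0.13. The summed level of the 9 genes was 285 to 364 CPM with GST and 485 to 520 CPM with GST-PTR1. Most of that difference came from TP53INP1, whose mean went from 64.0 to 228 CPM, so the sum does not describe the group. The smallest count behind any of these values was 186 reads (FDXR) and the largest 8603 (TP53INP1).

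**Figure D1:**
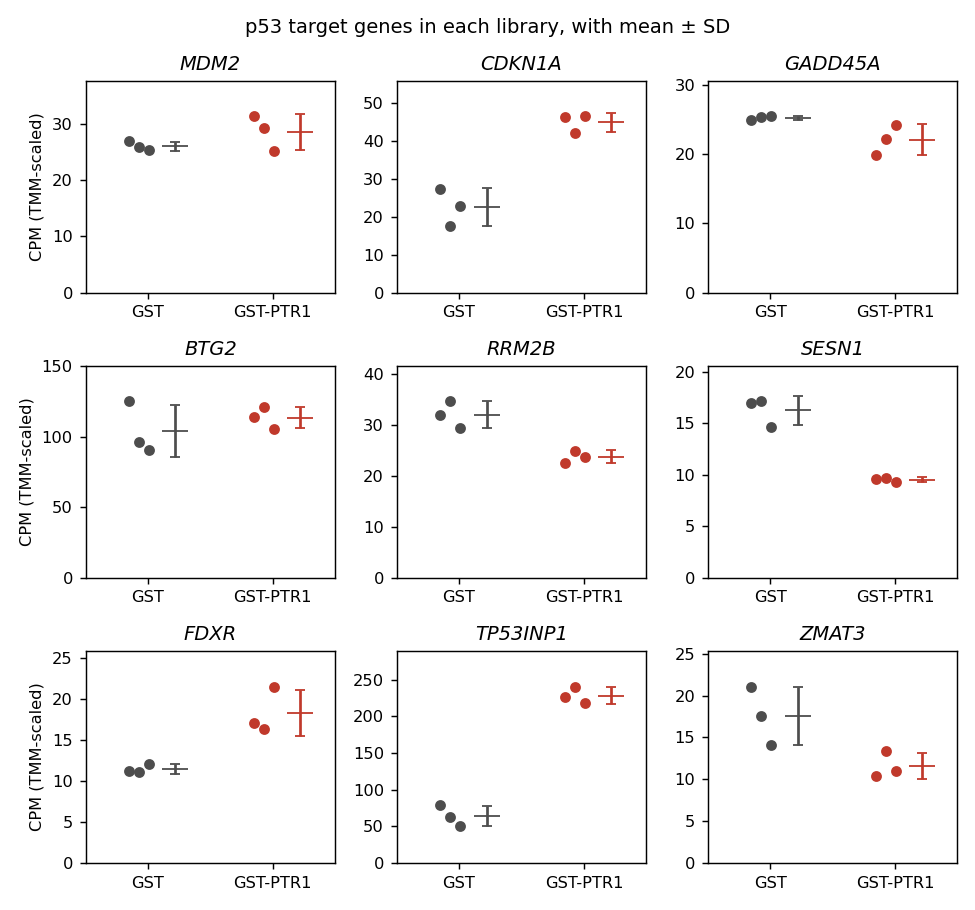
Level of each of the 9 p53 target genes in every library, in CPM on TMM-scaled totals (vertical axis, from 0), with GST in grey and GST-PTR1 in red; points are libraries in order of rising total count, and the bar beside them is the mean ± SD (n = 3). The points of the 2 treatments are apart for 7 genes and overlap for MDM2 and BTG2.

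For 7 of the 9 genes the GST and GST-PTR1 libraries were fully apart (3 higher and 4 lower with GST-PTR1), as they were for 40.4% of all genes tested, 19.2% in the upward and 21.2% in the downward direction. For such a gene the exact two-sided permutation test gave p = 0.1, the smallest that 3 libraries against 3 allow, so single-gene calls rest on the spread shared across genes. The GST library of 15202503 counts had the highest level among the GST libraries for 5 of the 9 genes (MDM2, CDKN1A, BTG2, TP53INP1 and ZMAT3).

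MDM2 (ENSG00000135679) lies on the plus strand of chromosome 12 at chr12:69201956-69239214 in GRCh37, the build of the count table. It is both an inhibitor and a target of p53, and is widely read as a gauge of p53 activity. Its level was 26.9, 25.8 and 25.3 CPM in the GST libraries and 31.3, 29.2 and 25.1 CPM in the GST-PTR1 libraries. The lowest GST-PTR1 library sat below every GST library, so the treatments overlapped. The means were 26.0 ± 0.817 and 28.5 ± 3.14 CPM (SD, n = 3), and the log2 fold change of 0.13 had a standard error of 0.12, a 95% interval of -0.13 to 0.39 and an adjusted p of 0.447 by edgeR's quasi-likelihood test. On plain library totals the value was -0.06, so neither scaling gave a call and the sign depended on the scaling. Exons of another gene on the same strand cover 5.48% of the 8017 exon bases of MDM2, and reads shared by both were not counted.

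Sequence before the start sites of 6 of the 9 genes was available from RefSeq (GRCh38.p14), as 13 windows of 250 bases, and was searched for the p53 consensus, which joins a pair of half-sites of 10 bases with no spacer and reads the same on both strands. GADD45A, RRM2B and TP53INP1 had no window in the table used. The closest match of 20 bases had 2 mismatches before MDM2, 3 before FDXR and 3 before SESN1, 4 before ZMAT3, and 5 before CDKN1A and BTG2. Of 35116 such windows, 0.561% held a match with at most 2 mismatches, 4.36% with at most 3, 22.1% with at most 4 and 64.5% with at most 5. These shares are per window, whereas MDM2, SESN1, FDXR and ZMAT3 had several windows each and were given their closest match. Their matches therefore look rarer beside these shares than beside a share per gene, which was not computed. Sequence outside the windows was not searched, so a p53 site elsewhere in or near any of these genes would have been missed. The matches before FDXR and SESN1 each include 1 exact half-site, which 5.57% of the windows have. The 3 closest are shown because they belong to genes with different results, MDM2 not called, FDXR higher and SESN1 lower. Capitals mark the 20 bases of the match, and each stretch is written 5′ to 3′ on the gene's strand.
MDM2: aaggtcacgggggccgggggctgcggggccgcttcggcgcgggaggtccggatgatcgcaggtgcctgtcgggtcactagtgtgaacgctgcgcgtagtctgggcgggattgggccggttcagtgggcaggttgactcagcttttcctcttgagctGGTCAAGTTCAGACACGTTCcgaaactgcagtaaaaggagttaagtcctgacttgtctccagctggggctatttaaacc
SESN1: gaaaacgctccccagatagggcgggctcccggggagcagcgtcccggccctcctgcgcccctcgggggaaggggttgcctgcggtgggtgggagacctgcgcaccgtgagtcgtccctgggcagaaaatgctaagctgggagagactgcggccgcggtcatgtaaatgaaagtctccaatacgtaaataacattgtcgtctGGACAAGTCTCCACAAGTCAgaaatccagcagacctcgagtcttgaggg
FDXR: ggcgggcccGGGCAGGAGCGGGCTTGCCCt

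In GRCh38.p14 the MDM2 stretch is chr12:68808767-68809001 on the plus strand and the SESN1 stretch is chr6:109008989-109009238 on the minus strand. Both precede a start site inside the gene, since another RefSeq start lies further upstream, and neither stretch holds exon bases of the GENCODE v29 annotation. The FDXR stretch, chr17:74872995-74873024 on the minus strand, ends next to the RefSeq start, and its match falls within an exon that GENCODE begins slightly upstream. A match describes the sequence only, and counts per gene do not tell apart the transcripts of different start sites.

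Of the 3 genes of growth arrest, 1 was called. CDKN1A (ENSG00000124762, chr6:36644305-36655116 in GRCh37, plus strand) encodes p21, the inhibitor of cyclin-dependent kinases that carries out much of the arrest driven by p53. Its level was 27.3, 17.6 and 22.7 CPM in the GST libraries and 46.2, 42.0 and 46.4 CPM in the GST-PTR1 libraries. All of the GST-PTR1 libraries exceeded all of the GST libraries. The mean went from 22.5 ± 4.88 to 44.9 ± 2.51 CPM (SD, n = 3), a 2.00-fold rise with a log2 fold change of 1.00, a standard error of 0.15 and an adjusted p of 0.000969 by edgeR's quasi-likelihood test. The value lay just under the 2-fold threshold.

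GADD45A (ENSG00000116717, chr1:68150744-68154021, plus strand) encodes a small protein of the stress response that binds PCNA and p21 and acts on arrest and DNA repair. It stood at 24.9, 25.3 and 25.4 CPM with GST and at 19.8, 22.2 and 24.2 CPM with GST-PTR1. All GST-PTR1 libraries were below all GST libraries, the deepest by a small margin. The means were 25.2 ± 0.278 and 22.1 ± 2.21 CPM (SD, n = 3), and the log2 fold change of -0.19 (standard error 0.12) had an adjusted p of 0.263 by edgeR's quasi-likelihood test. With plain library totals it was -0.39 with an adjusted p of 0.0277, which is a call.

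BTG2 (ENSG00000159388, chr1:203274619-203278730, plus strand), an antiproliferative protein that recruits the CCR4-NOT deadenylase to messenger RNA, was the most abundant of the group per exon length with GST. It was at 125, 96.2 and 90.5 CPM with GST and at 114, 121 and 106 CPM with GST-PTR1. The treatments overlapped because the smallest GST library was the highest of all 6. The means were 104 ± 18.5 and 114 ± 7.74 CPM (SD, n = 3), with a log2 fold change of 0.13, a standard error of 0.13, a 95% interval of -0.16 to 0.42 and an adjusted p of 0.505 by edgeR's quasi-likelihood test. With plain totals the value was -0.07.

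The genes of nucleotide supply, redox control and mitochondrial electron transfer were all called, in opposite directions. RRM2B (ENSG00000048392, chr8:103216730-103251346, minus strand) encodes p53R2, the ribonucleotide reductase subunit that supplies deoxynucleotides outside S phase. Its level was 32.0, 34.6 and 29.4 CPM with GST and 22.5, 25.0 and 23.8 CPM with GST-PTR1, and every GST-PTR1 library was below every GST library. The mean of 32.0 ± 2.61 CPM became 23.8 ± 1.22 CPM (SD, n = 3), a decrease with a log2 fold change of -0.43, a standard error of 0.11 and an adjusted p of 0.0218 by edgeR's quasi-likelihood test. The call was lost, with adjusted p from 0.0595 to 0.0689, when the GST library of 20077280 counts or any of the 3 GST-PTR1 libraries was left out.

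SESN1 (ENSG00000080546, chr6:109307640-109416022, minus strand) encodes sestrin 1, a stress protein that restrains mTORC1 and supports antioxidant defence. It stood at 17.0, 17.1 and 14.7 CPM with GST and at 9.55, 9.74 and 9.33 CPM with GST-PTR1. The GST-PTR1 libraries lay within a narrow band, well below the GST libraries. The mean fell by 41.3% on the fitted scale, from 16.3 ± 1.38 to 9.54 ± 0.204 CPM (SD, n = 3), with a log2 fold change of -0.77, a standard error of 0.12 and an adjusted p of 0.00143 by edgeR's quasi-likelihood test.

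FDXR (ENSG00000161513, chr17:72858619-72869156, minus strand) encodes ferredoxin reductase, which passes electrons from NADPH to mitochondrial ferredoxins. Its level was 11.2, 11.03 and 12.1 CPM with GST and 17.0, 16.3 and 21.5 CPM with GST-PTR1. All GST-PTR1 libraries were above all GST libraries, with the deepest library highest. The mean went from 11.4 ± 0.585 to 18.3 ± 2.80 CPM (SD, n = 3), a 1.60-fold rise with a log2 fold change of 0.68, a standard error of 0.14 and an adjusted p of 0.00599 by edgeR's quasi-likelihood test.

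TP53INP1 (ENSG00000164938, chr8:95938200-95961639, minus strand), a stress-induced protein that takes part in autophagy and in p53-dependent apoptosis, had the largest fold change of the 9 genes. Its level was 78.8, 62.2 and 50.9 CPM with GST and 226, 241 and 218 CPM with GST-PTR1. The lowest GST-PTR1 library was far above the highest GST library. The mean rose 3.57-fold, from 64.0 ± 14.0 to 228 ± 11.4 CPM (SD, n = 3), with a log2 fold change of 1.84, a standard error of 0.15, a 95% interval of 1.51 to 2.17 and an adjusted p of 8.11e-06 by edgeR's quasi-likelihood test. Its absolute log2 fold change was above that of 97.8% of the genes tested.

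ZMAT3 (ENSG00000172667, chr3:178735011-178790067, minus strand) encodes an RNA-binding zinc finger protein, also called WIG1, that acts on the stability and splicing of transcripts. It was at 21.1, 17.6 and 14.1 CPM with GST and at 10.4, 13.4 and 10.98 CPM with GST-PTR1. The groups did not overlap, but the highest GST-PTR1 library came close to the lowest GST library. The mean of 17.6 ± 3.48 CPM became 11.6 ± 1.59 CPM (SD, n = 3), a decrease with a log2 fold change of -0.59, a standard error of 0.17 and an adjusted p of 0.0274 by edgeR's quasi-likelihood test. The call was lost, with adjusted p from 0.065 to 0.0732, when the GST library of 15202503 or 20077280 counts or the GST-PTR1 library of 22874133 or 44688737 counts was left out.

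**Figure D2:**
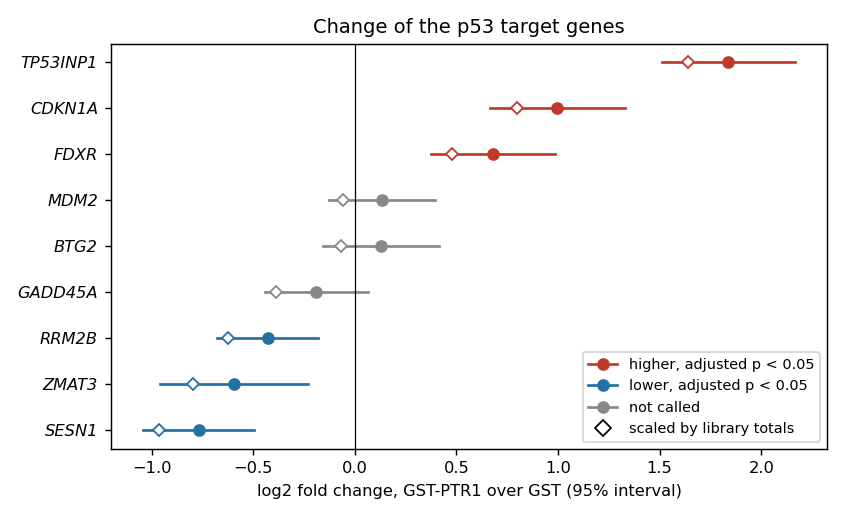
Log2 fold change of GST-PTR1 over GST for the 9 p53 target genes (horizontal axis), with filled circles and 95% intervals from the TMM-scaled fit and open diamonds from plain library totals; colour gives the call of the TMM-scaled fit. TP53INP1, CDKN1A and FDXR lie right of 0 and SESN1, ZMAT3 and RRM2B left of 0 on either scaling, and the diamonds of MDM2 and BTG2 fall on the other side of 0 from their circles.

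The calls of TP53INP1, CDKN1A, FDXR and SESN1 were kept in all 13 alternative fits that changed the scaling, test, filter or depth or left out a library. Across these the log2 fold change ran from 1.64 to 2.01 for TP53INP1, from 0.80 to 1.15 for CDKN1A, from 0.48 to 0.76 for FDXR and from -0.97 to -0.73 for SESN1.

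The order of the genes by level also differed between treatments. Per exon length, as RPKM (CPM divided by the exon length in kilobases), the mean level with GST was 37.7 for BTG2, 12.2 for GADD45A, 11.3 for TP53INP1, 7.55 for CDKN1A and 5.77 for RRM2B. MDM2, FDXR and SESN1 followed at 3.24, 3.18 and 3.18 RPKM, and ZMAT3 was lowest at 1.82 RPKM. The libraries of neighbours in this order overlapped from GADD45A to RRM2B and from MDM2 to SESN1, so those ranks were not separated. With GST-PTR1, BTG2 at 41.2 RPKM and TP53INP1 at 40.2 RPKM overlapped at the top, ahead of CDKN1A (15.04), GADD45A (10.7), FDXR (5.08), RRM2B (4.28), MDM2 (3.56), SESN1 (1.86) and ZMAT3 (1.20), and no other neighbours overlapped. As a share of the summed RPKM of the 9 genes, TP53INP1 made up 13.0% ± 1.35 with GST and 32.6% ± 0.719 with GST-PTR1, and BTG2 made up 43.7% ± 2.19 and 33.5% ± 1.41 (SD, n = 3).

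**Figure D3:**
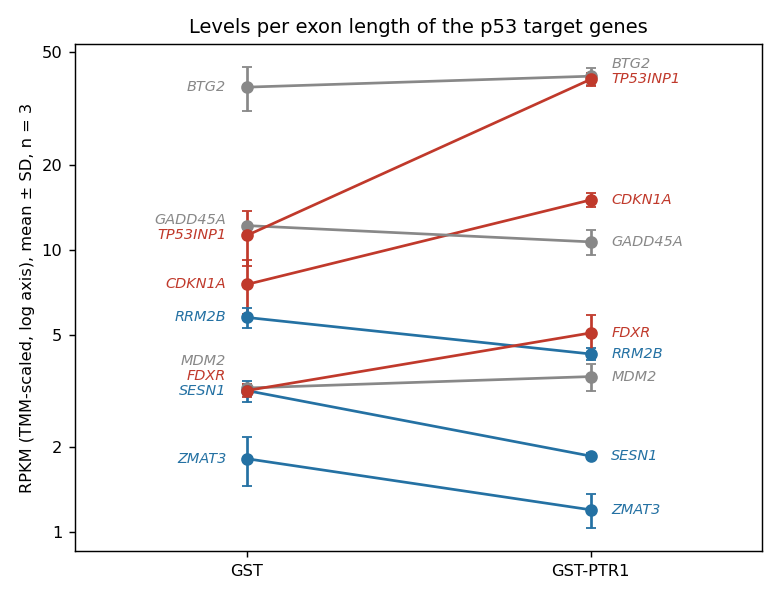
Mean level ± SD (n = 3) of each of the 9 p53 target genes in RPKM on TMM-scaled totals (vertical axis, log scale) with GST and with GST-PTR1, joined by a line for each gene; red genes were called higher, blue lower and grey not called. The line of TP53INP1 climbs from the level of GADD45A to that of BTG2.

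Genes of the same protein family or of related function as a target gene were called in the same and in the opposite direction. Of 27 relatives and partners, 21 were tested, and 6 were called higher and 4 lower (47.6%, beside 20.6% of all genes tested). On plain totals, where lower calls also became more frequent over all genes, 5 were higher and 6 lower. Among the other inhibitors of cyclin-dependent kinases listed, CDKN1B (0.54) and CDKN2B (0.78) were called higher, as CDKN1A was, and CDKN2D was called lower (-0.57). CDKN1C (p57) was at 5.92 ± 1.28 CPM with GST and 2.13 ± 0.300 CPM with GST-PTR1 (log2 fold change -1.47), opposite to CDKN1A. GADD45B, which unlike GADD45A was called higher, went from 24.2 ± 2.66 to 102 ± 10.0 CPM (log2 fold change 2.08, adjusted p = 6.94e-07 by edgeR's quasi-likelihood test). In the BTG family BTG1 and BTG3 were called higher, by 0.91 and 1.06 on the log2 scale, and TOB1 lower, at -0.52. SESN3 was called higher (0.90), opposite to SESN1, at only 1.80 CPM with GST, while SESN2 stood at -0.39 without a call. TP53INP2 was called lower (-0.66), opposite to TP53INP1. RRM1 and RRM2, other subunits of ribonucleotide reductase, were not called, at 0.14 and 0.23, and the FDXR substrate FDX1 had a log2 fold change of 0.02. Differences in response between a target gene and its relatives were not tested.

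**Figure D4:**
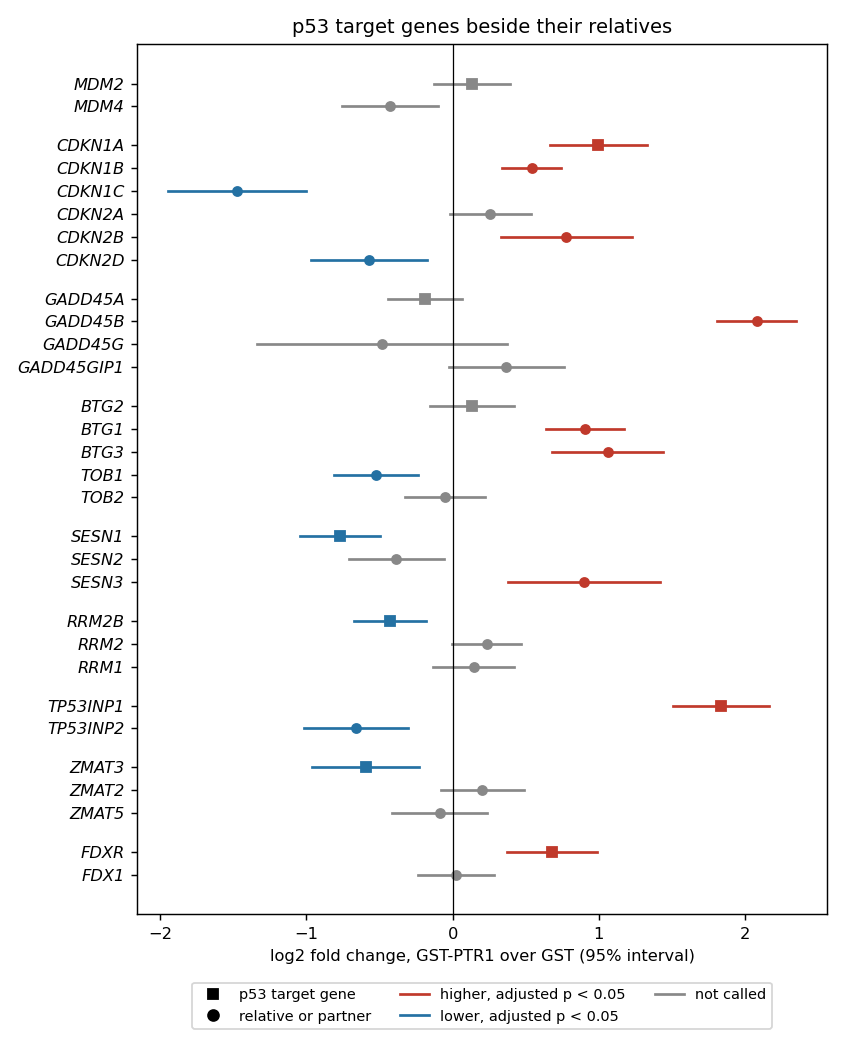
Log2 fold change of GST-PTR1 over GST with its 95% interval (horizontal axis) for the 9 p53 target genes (squares) and their tested relatives or partners (circles), grouped by target gene. Red was called higher, blue lower and grey not called. CDKN1C, SESN3 and TP53INP2 lie on the other side of 0 from CDKN1A, SESN1 and TP53INP1.

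A wider list of 120 further p53 targets, written from general knowledge, had 101 tested genes, of which 21 were called higher and 17 lower (37.6%), beside 20.6% of all genes. By direction this was 20.8% higher and 16.8% lower, beside 9.15% and 11.4% of all genes. On plain totals 17 were higher and 31 lower, and the calls over all genes shifted the same way. Their median log2 fold change was -0.04, beside 0.01 for all genes tested, and -0.24 on plain totals, beside -0.19 for all genes. The list was divided by whether a gene is also known as a target of NF-κB or interferon. Of the 21 tested genes that are, 11 were higher and 2 lower (61.9%), with a median of 0.88. Of the 80 that are not, 10 were higher and 15 lower (31.3%), with a median of -0.11. The division was written from general knowledge with earlier results of these data known, so these counts and medians are descriptions. Which transcription factor acted on these genes was not tested.

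The genes with the smallest adjusted p among those changed at least 2-fold were all higher. LIF, a cytokine, went from 1.56 ± 0.0443 to 96.7 ± 8.60 CPM (log2 fold change 5.95), and CSF1, a growth factor of macrophages, from 2.72 ± 0.686 to 26.4 ± 5.31 CPM (3.28). DRAM1, a lysosomal protein of autophagy, rose from 1.501 ± 0.232 to 22.7 ± 1.35 CPM (3.90). The stress-response kinase PLK3 (2.28), the transcription factors ATF3 (2.52) and PRDM1 (1.35), the early response gene IER5 (1.59), the signalling adaptor TRAF4 (1.77), the BH3-only apoptosis gene PMAIP1 (1.97) and the membrane protein CD82 (1.23) followed. Of these 10 genes, LIF, CSF1, PLK3, ATF3, PRDM1, TRAF4 and PMAIP1 are among those also known as NF-κB or interferon targets.

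The counts by role stand beside 9.15% of all genes tested called higher and 11.4% called lower. In DNA repair (14.3%) and feedback (20%) the share called did not exceed the 20.6% of all genes. It ran from 30.8% to 53.3% in the other roles. By role, no gene of the DNA repair group was called higher, and 1 of 7, DDB2, a damage sensor of nucleotide excision repair, was lower (22.2 ± 1.99 to 14.9 ± 2.07 CPM, -0.58). In the feedback group 1 of 5 was called, RNF144B, a ubiquitin ligase, at -1.26, and the phosphatase PPM1D, which like MDM2 restrains p53, was at 23.3 ± 2.00 and 23.3 ± 1.35 CPM. Growth arrest had 3 of 9 higher and none lower. Apoptosis had 4 of 17 higher and 3 lower: beside PMAIP1, the death receptor FAS was higher (1.86), whereas BBC3, which encodes the BH3-only protein PUMA, was lower (3.93 ± 0.909 to 2.36 ± 0.279 CPM, -0.74), as was APAF1 (-0.77), and BAX was at 29.6 ± 3.95 and 30.8 ± 1.39 CPM (0.05). Metabolism and autophagy had 2 of 13 higher and 2 lower, the secreted and surface proteins 5 of 15 higher and 3 lower, and the remaining genes 7 of 35 in each direction.

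**Figure D5:**
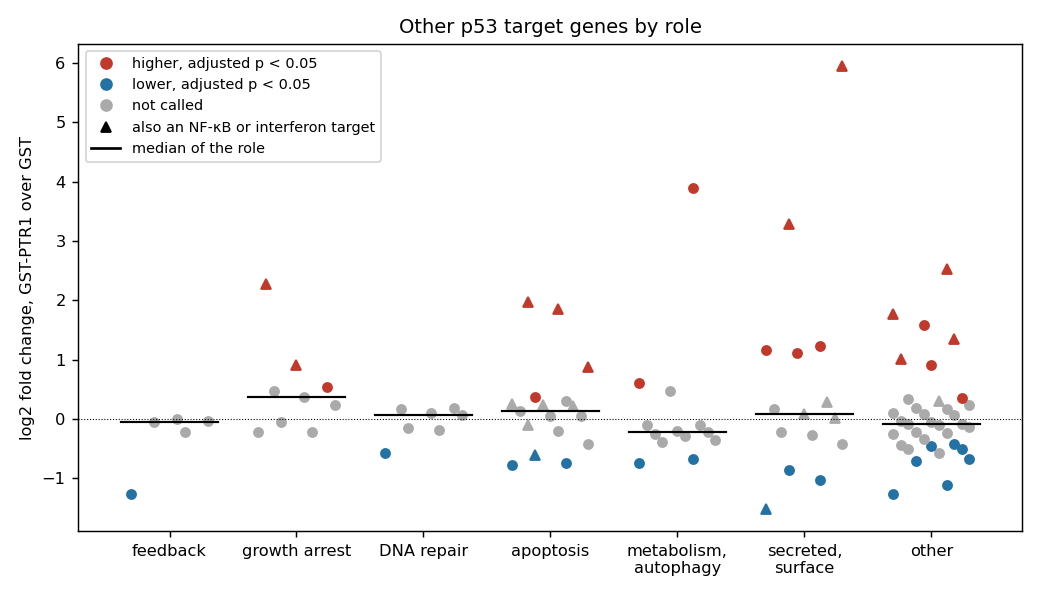
Log2 fold change of GST-PTR1 over GST (vertical axis) for the 101 tested genes of the wider p53 target list, by role; each point is a gene, triangles are genes also known as NF-κB or interferon targets, colour gives the call, and the bar is the median of the role. Most of the points above 1 are triangles, and the medians of the roles lie between -0.21 and 0.37.

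Of 28 regulators of p53 that were tested, 2 were called (7.14%, beside 20.6% of all genes). The ubiquitin ligase TRIM24 was higher (38.2 ± 0.418 to 57.3 ± 1.96 CPM, log2 fold change 0.58) and PPP1R13B, which encodes the coactivator ASPP1, was lower (11.7 ± 2.15 to 6.42 ± 0.820 CPM, -0.86). On plain totals 1 regulator was higher and 4 were lower, with the shift over all genes given above. MDM4, the partner of MDM2 in restraining p53, stood at 48.0 ± 7.82 and 35.7 ± 5.58 CPM, with a log2 fold change of -0.43 and an adjusted p of 0.0653 by edgeR's quasi-likelihood test. The means of TP63 and TP73 were at or below 0.206 CPM.

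The nearest tested genes on either side of the 9 targets were examined to see whether a neighbour shared the direction of a target gene. Of these 18 genes, 3 were higher and 2 lower (27.8%), near the 20.6% of all genes called. On plain totals 2 were higher and 4 lower. CCNE2, which encodes cyclin E2 and lies 29294 bases from TP53INP1, rose with it, from 16.9 ± 0.932 to 50.9 ± 3.87 CPM (log2 fold change 1.60). NDUFAF6, whose bounds enclose TP53INP1 on the other strand, had a log2 fold change of 0.26 and was not called. Next to CDKN1A the pseudogene LAP3P2, 1258 bases away, was higher (0.59). HID1, 77682 bases from FDXR, was lower (-0.99), opposite to FDXR. The pseudogene CTBP2P8, the nearest tested gene to the right of GADD45A at 473423 bases, was higher (1.20) at a level of 0.246 CPM with GST. The neighbours of MDM2, BTG2, SESN1 and ZMAT3 were not called.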

How the data were processed

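RNA-Seq had been made from RPMI8226 cells in 6 libraries, 3 per treatment. The authors deposited unnormalized counts per gene, made with featureCounts 1.5.0-p1 on the Ensembl release 75 annotation of GRCh37, by strand and without reads of several places or genes. Per the labels, FastQC, Subread, limma and hg19 were also used, and the aligner is not given in the sources used here. Exon lengths came with the table.

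From these counts, CPM and RPKM were computed on TMM-scaled totals. Treatments were compared in R 4.3.3 with edgeR 4.0.16 (TMM factors, filterByExpr, glmQLFit, glmQLFTest, two-sided, Benjamini-Hochberg adjustment over 16926 genes, threshold 0.05). The standard errors given in the text for log2 fold changes come from that fit. The error bars of log2 fold changes in the figures are the intervals named in the captions, from the same fit, and not standard errors. Alternatives were DESeq2's size factors or plain totals, DESeq2 1.42.0, limma 3.58.1 (voom), a minimum of 1 count in any library or of 10 counts in each of them, thinning to the smallest total, and leaving out each library in turn. A fit of 4 libraries only, paired by the numbers their columns have in common, and the same fit unpaired were chosen after seeing the data. The script was tested on simulated data. Columns were assigned to a treatment by name. Replicates differed by more than sampling noise (smallest chi-square per gene 7.66) and p-values measure only the spread between these libraries.

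The 9 genes and all lists were chosen with earlier results of these data known, so counts over them are descriptions. All 9 genes are named. Of the other lists, genes past 0.05 and 2-fold were eligible by adjusted p (10 of the wider list, 5 of each other list), as were relatives that moved opposite to their target gene. BBC3, APAF1, BAX, FAS, DDB2, RNF144B, PPM1D, TRIM24, PPP1R13B, TP63, TP73 and MDM4 were named after their values were seen. So were CDKN1B, CDKN2B, BTG1, TOB1, SESN2, RRM1, RRM2, FDX1, LAP3P2, HID1 and NDUFAF6. BTG1, CDKN2A, MDM4, PRDM1 and SESN2 stand in 2 lists each. Symbols were matched for 39699 of the 63677 identifiers, and all listed genes were found. Results of some single genes of the lists are not reported here. Figures were drawn with matplotlib 3.10.9 in Python 3.11.15.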

Additional observations from a re-analysis of the deposited data

How the results depend on the processing

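Under the 13 other settings first chosen the 3 genes called higher (TP53INP1, CDKN1A and FDXR) were kept, and no target gene reversed a call. On plain library totals, GADD45A was also called lower (-0.39), and the number called lower became 31 in the wider list, 4 among the regulators and 4 among the neighbours. Over all genes tested, lower calls then went from 1937 to 3788 and higher calls from 1549 to 927, and the wider list had 17 genes called higher. Among the regulators the number called lower was 3 with DESeq2 and 2 with limma's voom. It was 4 with a filter of at least 1 count in any library and 3 after thinning. The number called higher was 2 with that filter and 2 after thinning. Over all genes, lower calls were 1937 with DESeq2, 1972 with voom, 2306 with that filter and 1377 after thinning. Higher calls were 2608 with that filter and 1248 after thinning. When each library was left out in turn, the target genes called lower ranged from 1 to 3 and those called higher stayed at 3. Over the same fits, the wider list had 9 to 19 genes lower and 18 to 22 higher. The regulators had 1 to 2 lower and 1 to 2 higher, the relatives 2 to 4 lower and 4 to 6 higher. The neighbours had 1 to 2 lower and 2 to 3 higher. All genes tested in these leave-one-out fits had 1179 to 1818 lower and 1051 to 1531 higher, so the calls over all genes varied too. RRM2B and ZMAT3 were the target genes that lost their call, each in 4 of these fits, with log2 fold changes from -0.37 to -0.63 for RRM2B and from -0.45 to -0.79 for ZMAT3 over these 13 settings. The cause was not tested. The columns carry other numbers than the replicates in the labels, so a replicate block over all 6 libraries could not be fitted. Of the column numbers, 2 occur in both treatments. The difference between the libraries of these numbers had a correlation of -0.02 between treatments across 16926 genes. With so few libraries this value cannot tell whether those of the same number were prepared together. Fits of those 4 libraries, without and with that number as a replicate block, were chosen after seeing the data. Both gave 3 target genes higher and 1 lower, and 3 regulators higher and 2 lower. Over all genes, 1790 were higher and 1848 lower without the block, and 1603 higher and 1715 lower with it. RRM2B and ZMAT3 were not called in either fit (adjusted p = 0.0565 and 0.101 without the block, 0.0821 and 0.125 with it, by edgeR's quasi-likelihood test). With 1 time point and 3 libraries a treatment, the 95% intervals of MDM2 (-0.13 to 0.39) and BTG2 (-0.16 to 0.42) allow changes of either sign.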
